A study of Mus musculus with 18 samples.

Results

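ISG15 conjugation is the attachment of the ubiquitin-like protein ISG15 to other proteins, and 5 genes of this system were followed through all 6 groups of an RNA-seq experiment in L929 cells. They were Isg15 itself, Uba7, Ube2l6, Herc6 and Usp18, taken from the count table by gene name. The table holds 57180 genes, of which 14263 passed the filter on low counts, and all 5 genes were among those tested. L929 is an established mouse fibroblast line, here wild-type, so every group is a model of 1 cell line. The cells were stimulated with herring testis DNA (HT-DNA), which activates the cytosolic DNA sensor cGAS when it is transfected. They were also given aminooxyacetic acid (AOA), an inhibitor of aminotransferases, with or without aspartate, an amino acid that aminotransferases produce. The study asked whether AOA strengthens the response to DNA and whether added aspartate takes that effect away.

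Each group held 3 libraries from independent cultures. The Mock group carried the vehicle DMSO, and the AOA group received AOA at 0.5 mM. The AOA+Asp group received the same AOA and aspartate at 20 mM. The HT-DNA group received HT-DNA at 0.5 μg/ml by lipid transfection for 6 h. The HT-DNA+AOA group was pretreated with AOA for 1 h before the same HT-DNA, and the HT-DNA+AOA+Asp group received all 3 agents. Whether the groups without HT-DNA received the transfection reagent is not given in the sources used here, so in comparisons of cells with and without HT-DNA the DNA and the reagent cannot be told apart. A 1 h AOA pretreatment is recorded for the AOA and AOA+Asp groups too, but their total time with AOA is not. The same comparisons, and the interactions built on them, therefore cannot separate the DNA from a possible difference in AOA exposure. No group with aspartate alone was analysed here, so an effect of aspartate can only be read in cells that also had AOA. Levels are given as CPM, which is counts relative to the size of the scaled library. A gene is called higher or lower where edgeR's quasi-likelihood test, adjusted by the Benjamini-Hochberg method over all 14263 genes, gave a p under 0.05.

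Type I interferon, released when cGAS and STING respond to DNA, acts through its receptor and the transcription factor complex ISGF3, which binds the interferon-stimulated response element (ISRE). Isg15 is a classic target of that pathway, and its product is joined to lysines of other proteins by a short enzyme cascade. Uba7 encodes the activating enzyme, Ube2l6 the conjugating enzyme and Herc6 the main ISG15 ligase of the mouse. Usp18 encodes the protease that removes ISG15 again, and the same protein binds the interferon receptor and dampens its signal.

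Promoter sequences are shown for 4 of the 5 genes, because the genes share one pathway and Isg15 and Uba7 differ from Ube2l6 and Herc6 in the letters upstream of their starts. They come from RefSeq, build GRCm38.p6, and give the 100 bases before the annotated start, read 5′ to 3′ on the gene's strand. Usp18 was not matched in that table. Capitals mark matches to the ISRE letters GAAANNGAAA or to the shorter IRF core AANNGAAA, both searched on both strands, and every ISRE match contains an IRF core match. The Isg15 window is chr4:156200819-156200918 on the minus strand, the Uba7 window chr9:107975467-107975566 on the plus strand, the Ube2l6 window chr2:84798728-84798827 on the plus strand and the Herc6 window chr6:57580892-57580991 on the plus strand.
Isg15: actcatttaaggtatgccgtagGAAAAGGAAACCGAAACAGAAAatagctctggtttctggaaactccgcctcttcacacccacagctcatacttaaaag
Uba7: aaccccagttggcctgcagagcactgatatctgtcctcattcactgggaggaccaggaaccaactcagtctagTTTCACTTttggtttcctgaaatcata
Ube2l6: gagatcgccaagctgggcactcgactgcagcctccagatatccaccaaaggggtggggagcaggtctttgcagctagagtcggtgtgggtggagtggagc
Herc6: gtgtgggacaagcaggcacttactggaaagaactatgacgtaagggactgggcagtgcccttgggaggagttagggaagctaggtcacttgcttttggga

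The search covered the 250 bases before and 50 bases after each start. Isg15 held 3 overlapping ISRE matches between bases -78 and -57 and 4 IRF core matches, of which 1, at -128 to -121, lies upstream of the bases printed. Uba7 held no ISRE match and 1 IRF core match on the opposite strand at -27 to -20. Ube2l6 and Herc6 held neither motif, and none of the 4 held the GAS motif TTCNNNGAA. Among 32851 promoters of the same length, 3.44% held the ISRE letters, 23.9% the IRF core and 8.30% the GAS motif. A match describes letters only, and binding was not measured.

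The libraries held between 17901605 and 24057343 counts, with a median of 20385838. Replicates of the HT-DNA+AOA group differed most from each other, with a chi-square per degree of freedom of 18.2 to 67.0 between pairs, against 2.78 to 13.3 in the other groups. The tests shared an estimate of spread per gene across all groups, so SEs and p-values of comparisons with HT-DNA+AOA may be too small. Of 11 fibroblast markers, 8 were expressed above the filter in these cells, while Thy1, Dcn and Lum stayed at 4 counts or fewer. Of 5 leukocyte and macrophage markers, Ptprc and Adgre1 were at 0 counts in every library, which allows up to 3 counts, Itgam reached at most 4 counts and Csf1r 10.5 counts, and Cd68 was expressed at group means of 114 to 144 CPM. Cd68 was higher with AOA in stimulated cells (0.28, SE 0.07, adjusted p = 0.00346 by edgeR) and in the interaction of AOA with HT-DNA (0.30, SE 0.10, adjusted p = 0.0495), and its part in the results was not tested. In addition, the epithelial and endothelial markers were all below the filter. RNA from a whole culture cannot separate a change in the number of responding cells from a change in RNA per cell.

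Isg15 was the member with the largest response to HT-DNA. Its level was 1.35, 1.40 and 0.997 CPM in Mock, 1.81, 2.32 and 1.57 CPM with AOA, and 1.07, 1.27 and 0.80 CPM with AOA and aspartate. With HT-DNA it was 44.2, 47.0 and 53.5 CPM, with HT-DNA+AOA 103, 112 and 155 CPM, and with HT-DNA+AOA+Asp 37.6, 38.5 and 30.6 CPM. Every library with HT-DNA lay far above every library without it. The 3 HT-DNA+AOA libraries lay above the other 6 stimulated libraries, and the HT-DNA and HT-DNA+AOA+Asp groups did not overlap either.

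Usp18, the deconjugating protease, was highest with HT-DNA+AOA. It was at 1.61, 0.811 and 1.38 CPM in Mock, 1.40, 1.5 and 1.92 CPM with AOA, and 0.513, 0.783 and 0.716 CPM with AOA and aspartate. HT-DNA gave 6.72, 5.78 and 6.03 CPM, HT-DNA+AOA 43.9, 35.7 and 50.4 CPM, and HT-DNA+AOA+Asp 4.59, 4.04 and 3.31 CPM. Each HT-DNA+AOA library was above all libraries of the other groups, and the HT-DNA+AOA+Asp libraries were all below those with HT-DNA alone.

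Uba7, the activating enzyme, was low in every group but one. Its level was 1.35, 0.631 and 0.902 CPM in Mock, 1.03, 1.25 and 0.814 CPM with AOA, and 0.746, 0.440 and 0.800 CPM with AOA and aspartate, where the lowest library held 9 counts. It was at 1.72, 1.71 and 1.66 CPM with HT-DNA, 13.8, 10.5 and 13.5 CPM with HT-DNA+AOA, and 2.42, 2.07 and 2.13 CPM with HT-DNA+AOA+Asp. Only the HT-DNA+AOA libraries exceeded 10 CPM, and the HT-DNA+AOA+Asp libraries sat slightly above those with HT-DNA.

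Ube2l6, the conjugating enzyme, varied over a narrow range, from 18.1 to 34.5 CPM. It measured 21.8, 22.2 and 23.3 CPM in Mock, 19.0, 20.5 and 22.3 CPM with AOA, and 18.1, 18.5 and 19.4 CPM with AOA and aspartate. With HT-DNA it was 26.6, 26.1 and 26.6 CPM, with HT-DNA+AOA 23.5, 25.6 and 34.5 CPM, and with HT-DNA+AOA+Asp 20.6, 21.2 and 21.0 CPM. A single HT-DNA+AOA library, replicate 3, stood above the rest, and the other 2 libraries of that group were below all 3 HT-DNA libraries.

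Herc6, the ligase, was near 1 CPM without HT-DNA, with 1.10, 1.22 and 1.42 CPM in Mock, 1.35, 1.03 and 0.814 CPM with AOA, and 1.21, 1.03 and 1.43 CPM with AOA and aspartate. It was at 2.63, 2.79 and 2.14 CPM with HT-DNA, 12.3, 6.73 and 7.39 CPM with HT-DNA+AOA, and 4.50, 3.99 and 3.27 CPM with HT-DNA+AOA+Asp. The 3 stimulated groups did not overlap one another, and the spread was widest with HT-DNA+AOA, where replicate 1 was highest.

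**Figure D1:**
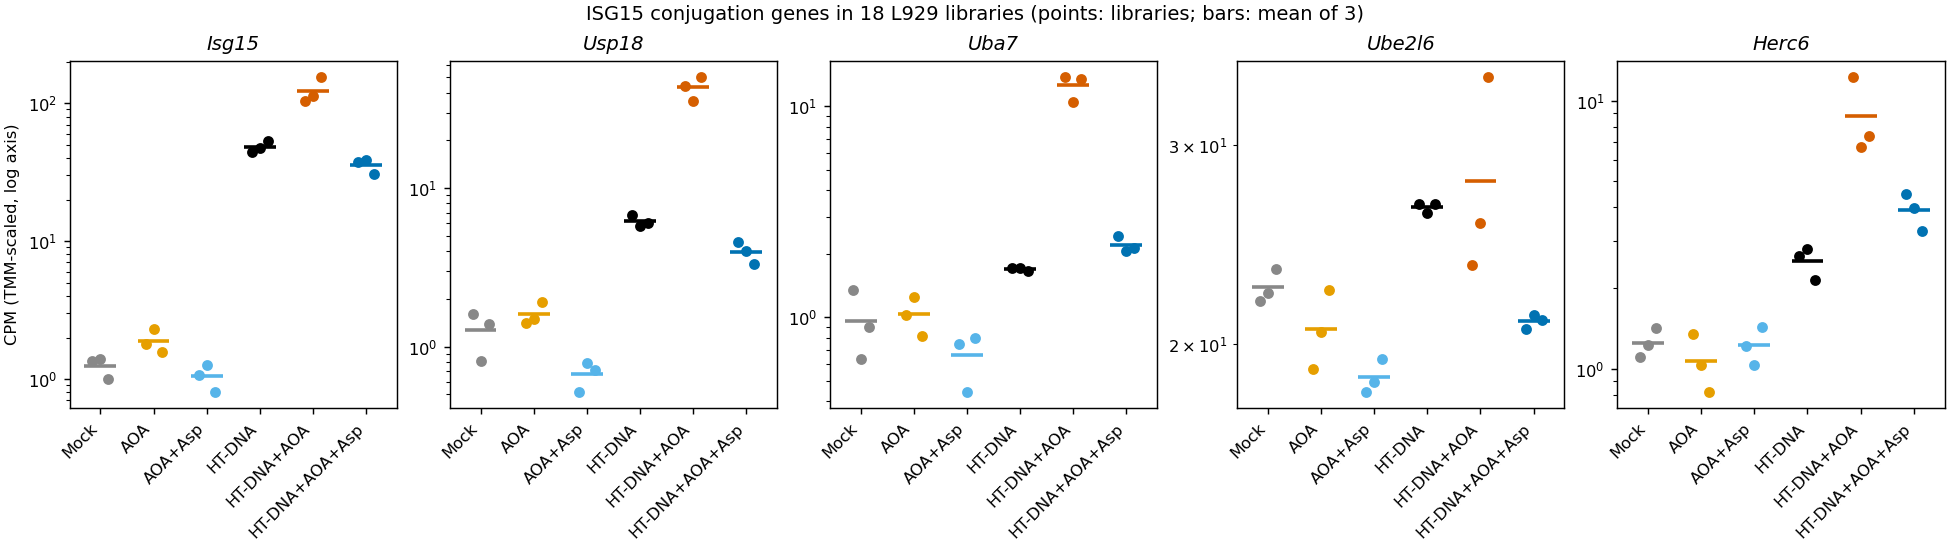
Level of each of the 5 genes in CPM on a log axis of its own per panel, for the 6 groups; points are single libraries and bars the mean of 3. Isg15, Usp18, Uba7 and Herc6 were highest in all 3 HT-DNA+AOA libraries, while Ube2l6 stayed between 18.1 and 34.5 CPM throughout.

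The order of group means was the same for Isg15 and Usp18, from AOA+Asp through Mock and AOA to HT-DNA+AOA+Asp, HT-DNA and HT-DNA+AOA. Uba7 and Herc6 placed HT-DNA+AOA+Asp above HT-DNA, and Ube2l6 placed it below Mock. Among the 3 groups without HT-DNA, no pair of neighbours in the order of Isg15 and Usp18 was called different by edgeR for any member. The outer pair, AOA+Asp and AOA, was called different for Isg15 and Usp18, as given below.

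HT-DNA raised 4 of the 5 genes over Mock and lowered none, in a comparison where 24.2% of all genes tested were called higher and 24.0% lower. The rise in Isg15 was 5.26 on the log2 scale (SE 0.20, 38.3-fold, adjusted p = 6.97e-13 by edgeR), which placed it at rank 18 of 14263 genes by fold change. Usp18 rose by 2.28 (SE 0.21, 4.84-fold, adjusted p = 3.39e-07, rank 54). Herc6 rose by 1.01 (SE 0.26, adjusted p = 0.00349) and Uba7 by 0.80 (SE 0.25, adjusted p = 0.0132). Ube2l6 gave 0.24 (SE 0.11, adjusted p = 0.0701) and did not pass, although its 3 HT-DNA libraries were above the 3 Mock libraries. It did pass when only the libraries compared were fitted (0.23, adjusted p = 0.0122). The Uba7 call rested on Mock replicate 2, without which the log2 fold change was 0.57 (adjusted p = 0.0791).

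The response to HT-DNA was also measured against AOA-treated cells that lacked HT-DNA. There all 5 genes were higher, while 6.46% of genes were called higher and 6.98% lower. The log2 fold changes were 6.00 for Isg15 (SE 0.19, 63.8-fold), 4.76 for Usp18 (SE 0.19, 27.1-fold), 3.58 for Uba7 (SE 0.22, 12-fold) and 3.04 for Herc6 (SE 0.25, 8.21-fold), with adjusted p from 2.25e-14 for Isg15 to 4.21e-08 for Herc6. Ube2l6 rose by 0.43 (SE 0.11, 1.35-fold, adjusted p = 0.0103). That last call was lost without AOA replicate 1 (adjusted p = 0.0614) and when only the libraries compared were fitted (adjusted p = 0.213).

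In cells given AOA and aspartate, HT-DNA raised the 4 genes other than Ube2l6, against a background of 1.93% called higher and 1.52% lower. The rises were 5.09 for Isg15 (SE 0.21, 34.1-fold, adjusted p = 2.38e-12), 2.56 for Usp18 (SE 0.25, 5.89-fold, adjusted p = 1.52e-06), 1.71 for Uba7 (SE 0.26, 3.28-fold, adjusted p = 0.000401) and 1.67 for Herc6 (SE 0.25, 3.17-fold, adjusted p = 0.000337). Ube2l6 differed by 0.17 (SE 0.11, adjusted p = 0.497). The share of genes called thus fell from the comparison with Mock to the comparison with AOA and aspartate, while the number of members called higher was 4, 5 and 4. The cause of the difference in background was not tested.

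**Figure D2:**
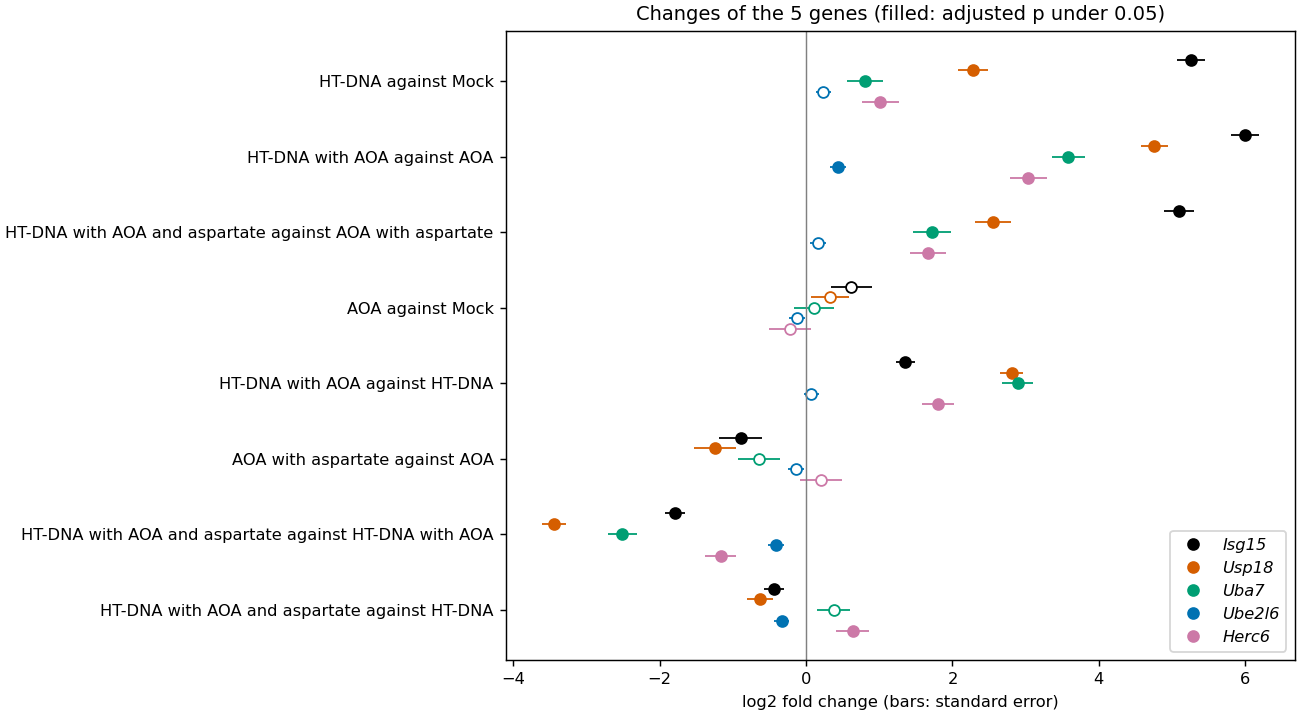
Log2 fold change of each of the 5 genes in each comparison, with error bars of 1 SE from edgeR; filled points have an adjusted p under 0.05. Isg15 had the largest rise with HT-DNA (5.26 over Mock), Uba7 and Usp18 the largest with AOA in stimulated cells (2.89 and 2.81), and Ube2l6 stayed within 0.43 of 0 in the comparisons plotted.

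Without HT-DNA, AOA changed none of the 5 genes by this test, although 22.4% of all genes were called higher and 23.3% lower. The log2 fold changes over Mock were 0.62 for Isg15 (SE 0.28, adjusted p = 0.0819), 0.33 for Usp18, 0.11 for Uba7, -0.12 for Ube2l6 and -0.22 for Herc6. With no adjustment, edgeR's test put 1 of them under 0.05, Isg15, whose AOA libraries were all above the Mock libraries. DESeq2 called 1 of the 5, again Isg15. The shares of all genes that passed without adjustment or with DESeq2 were not counted, so these counts cannot be weighed against them. Without adjustment the shares can only be as large as those given or larger.

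In HT-DNA-stimulated cells, AOA raised Isg15, Usp18, Uba7 and Herc6 and lowered none, against 22.8% of genes called higher and 22.7% called lower. Uba7 rose by 2.89 on the log2 scale (SE 0.21, 7.41-fold, adjusted p = 2.29e-09 by edgeR, rank 89 of 14263) and Usp18 by 2.81 (SE 0.16, 7.01-fold, adjusted p = 8.95e-11, rank 97). Herc6 rose 3.49-fold (SE 0.22 on the log2 scale, adjusted p = 1.94e-06). Isg15 rose by 1.36 (SE 0.13, 2.56-fold, adjusted p = 1.32e-07). Ube2l6 differed by 0.07 (SE 0.11, adjusted p = 0.601), and without HT-DNA+AOA replicate 3 the difference was -0.11. With any 1 of the 3 HT-DNA+AOA libraries left out, the log2 fold change ran from 2.69 to 2.93 for Usp18, 2.82 to 3.0 for Uba7, 1.48 to 1.97 for Herc6 and 1.16 to 1.47 for Isg15.

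The AOA effect differed with and without HT-DNA for Uba7, Usp18 and Herc6. The interaction, which is the AOA effect in stimulated cells minus that in unstimulated cells, was 2.78 for Uba7 (SE 0.34, adjusted p = 6.44e-05 by edgeR), 2.48 for Usp18 (SE 0.30, adjusted p = 5.38e-05) and 2.02 for Herc6 (SE 0.36, adjusted p = 0.00170). Isg15 gave 0.74 (SE 0.32, adjusted p = 0.118) and Ube2l6 0.20 (SE 0.15, adjusted p = 0.375), neither past the threshold. Over all genes, 7.23% had a higher and 8.26% a lower interaction by the same test. Without the filter on low counts, the Isg15 interaction passed (0.73, adjusted p = 0.0259).

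Aspartate added to HT-DNA and AOA lowered all 5 genes, in a comparison that called 23.7% of genes higher and 23.9% lower and that shares its HT-DNA+AOA libraries with the preceding one. Usp18 fell by 3.44 on the log2 scale (SE 0.17, adjusted p = 1.54e-11 by edgeR), at rank 43 among the genes that fell most. Uba7 fell by 2.51 (SE 0.20, adjusted p = 1.40e-08), Isg15 fell by 1.80 (SE 0.14, adjusted p = 6.94e-09) and Herc6 fell by 1.17 (SE 0.21, adjusted p = 0.000196). Ube2l6 fell by 0.41 (SE 0.11, adjusted p = 0.00411). Without HT-DNA+AOA replicate 3 that difference was -0.23 (adjusted p = 0.0296), and in a fit of the compared libraries alone its adjusted p was 0.0613.

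Aspartate added to AOA without HT-DNA lowered Isg15 and Usp18, against 23.5% of genes called higher and 22.8% lower. Usp18 fell by 1.24 on the log2 scale (SE 0.29, adjusted p = 0.00172 by edgeR), and its AOA+Asp libraries were all below its AOA libraries. Isg15 fell by 0.89 (SE 0.30, adjusted p = 0.0192), a call that was lost without AOA replicate 2 or without AOA+Asp replicate 3. Uba7 gave -0.64 (SE 0.29, adjusted p = 0.0760), Ube2l6 -0.14 and Herc6 0.20.

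The aspartate effect was more negative with HT-DNA than without it for Usp18, with an interaction of -2.20 (SE 0.36, adjusted p = 0.00302 by edgeR), and for Uba7, with -1.87 (SE 0.36, adjusted p = 0.0114). Few genes had such an interaction, 0.266% higher and 0.785% lower. Herc6 gave -1.37 (SE 0.36, adjusted p = 0.0805), Isg15 -0.91 (SE 0.34, adjusted p = 0.280) and Ube2l6 -0.27 (SE 0.15, adjusted p = 0.598). Herc6 passed with DESeq2 (-1.39, adjusted p = 0.0389), without HT-DNA+AOA replicate 3 (-1.48, adjusted p = 0.0314) and without the filter on low counts (adjusted p = 0.0130), and Isg15 passed without that filter (adjusted p = 0.0304). The Uba7 call was lost without AOA+Asp replicate 1 (adjusted p = 0.0586) or replicate 3 (adjusted p = 0.0691).

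Cells with AOA and aspartate were also set against Mock, a comparison in which 2.52% of genes were called higher and 3.95% lower. None of the 5 genes was called by edgeR, and with no adjustment its test put 2 of them under 0.05, Usp18 and Ube2l6. DESeq2 called 1, Usp18. Here too the shares of all genes without adjustment or with DESeq2 were not counted, so these counts cannot be weighed. The log2 fold changes were -0.91 for Usp18 (SE 0.29, adjusted p = 0.0715), -0.53 for Uba7, -0.27 for Isg15, -0.27 for Ube2l6 and -0.02 for Herc6.

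With HT-DNA present, cells with AOA and aspartate differed from cells with neither in a way that split the genes. Isg15, Usp18 and Ube2l6 were lower than with HT-DNA alone and Herc6 was higher, against 23.2% of genes called higher and 23.5% lower. Usp18 fell by 0.63 on the log2 scale (SE 0.18, adjusted p = 0.00733 by edgeR), Isg15 fell by 0.44 (SE 0.14, adjusted p = 0.0132) and Ube2l6 fell by 0.34 (SE 0.11, adjusted p = 0.0150). Herc6 rose by 0.64 (SE 0.23, adjusted p = 0.0287), and Uba7 gave 0.38 (SE 0.23, adjusted p = 0.179). None of these differences reached 1 on the log2 scale. The Herc6 call was lost without HT-DNA replicate 1 or 3 or HT-DNA+AOA+Asp replicate 1 or 2, and the Isg15 call without HT-DNA replicate 3 (adjusted p = 0.0722) or HT-DNA+AOA+Asp replicate 3 (adjusted p = 0.0776).

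The genes did not keep a fixed proportion to Isg15. The count of Usp18 per count of Isg15 was 0.152, 0.123 and 0.113 with HT-DNA, 0.425, 0.318 and 0.324 with HT-DNA+AOA, and 0.122, 0.105 and 0.108 with HT-DNA+AOA+Asp. The ratio with HT-DNA+AOA was above both other stimulated groups in all 3 libraries. The mean log2 difference was 1.46 from HT-DNA to HT-DNA+AOA and -1.66 from there to HT-DNA+AOA+Asp (exact permutation test, two-sided, p = 0.1 for each), which is the smallest p that 3 libraries against 3 can give. Without HT-DNA the ratio was 0.478 to 1.38 in the 9 libraries.

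For Uba7 per Isg15 the ratio was 0.0393, 0.0363 and 0.0310 with HT-DNA, 0.133, 0.0938 and 0.0867 with HT-DNA+AOA, and 0.0643, 0.0538 and 0.0696 with HT-DNA+AOA+Asp. The 3 groups did not overlap, and the ratio with aspartate lay between the other two. The mean log2 difference was 1.54 for AOA, -0.72 for aspartate and 0.82 between the outer pair, HT-DNA+AOA+Asp over HT-DNA (exact permutation p = 0.1 for each). For Herc6 per Isg15 the values were 0.0597, 0.0595 and 0.0400, then 0.119, 0.0600 and 0.0476, then 0.119, 0.104 and 0.107, so that HT-DNA overlapped HT-DNA+AOA. Ube2l6 per Isg15 went the other way, with -1.28 for AOA and 1.39 for aspartate (exact permutation p = 0.1 for each).

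**Figure D3:**
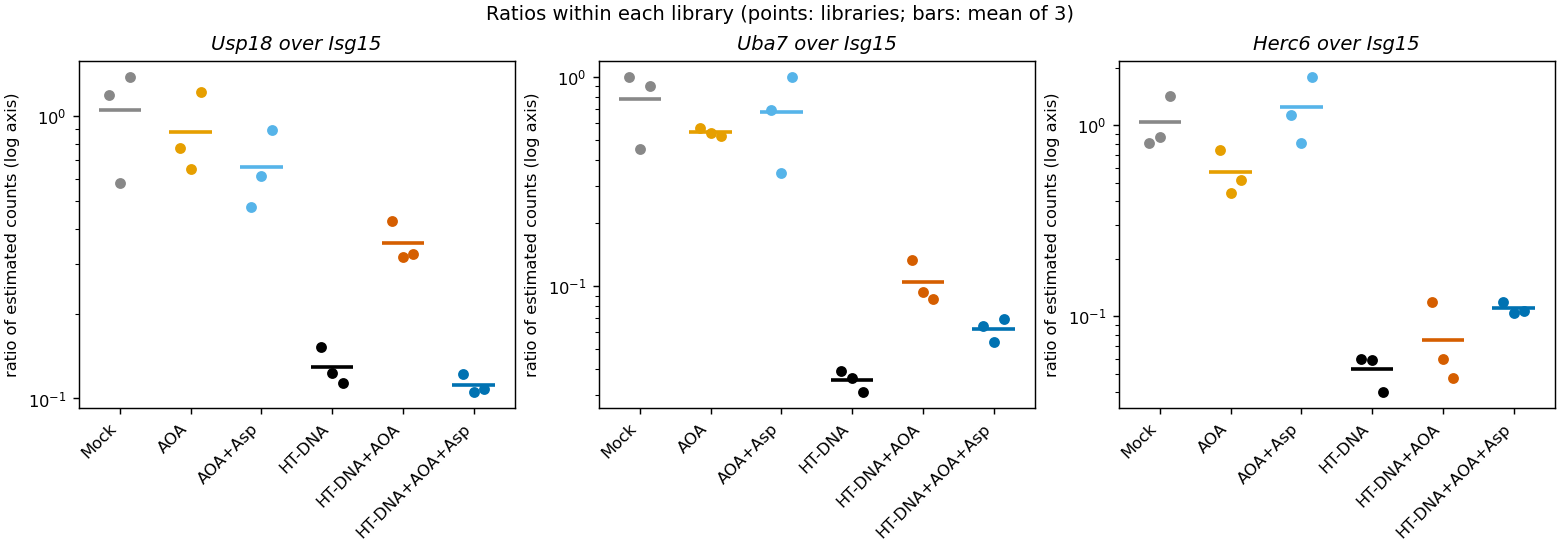
Counts of Usp18, Uba7 and Herc6 per count of Isg15 within each library, on log axes, by group; points are libraries and bars the mean of 3. Usp18 per Isg15 was 0.318 to 0.425 with HT-DNA+AOA and 0.105 to 0.152 in the 2 other stimulated groups.

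Levels of different genes can be set side by side only per length, here CPM per kilobase of all annotated exons. In Mock, Ube2l6 was the most abundant of the 5 at 11.2 ± 0.389 (SD, n = 3), with Isg15 at 1.65 ± 0.291, Usp18 at 0.454 ± 0.147, Uba7 at 0.144 ± 0.0543 and Herc6 at 0.134 ± 0.0174. The ranges of Uba7 and Herc6 overlapped there. With HT-DNA, Isg15 was first at 63.8 ± 6.31, ahead of Ube2l6 at 13.2 ± 0.145 and Usp18 at 2.21 ± 0.175. With HT-DNA+AOA, Isg15 reached 163 ± 36.8, and Usp18 at 15.5 ± 2.64 overlapped Ube2l6 at 14 ± 2.93. The activating enzyme Uba7 at 1.88 ± 0.273 and the ligase Herc6 at 0.948 ± 0.328 remained the least abundant in that group. With the longest transcript as length instead, the order of the 5 genes was the same in each group. Between 2.89% of the 31-base sequences of Uba7 and 15.5% of those of Ube2l6 also occur in other genes, so a part of these counts could have been assigned elsewhere.

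**Figure D4:**
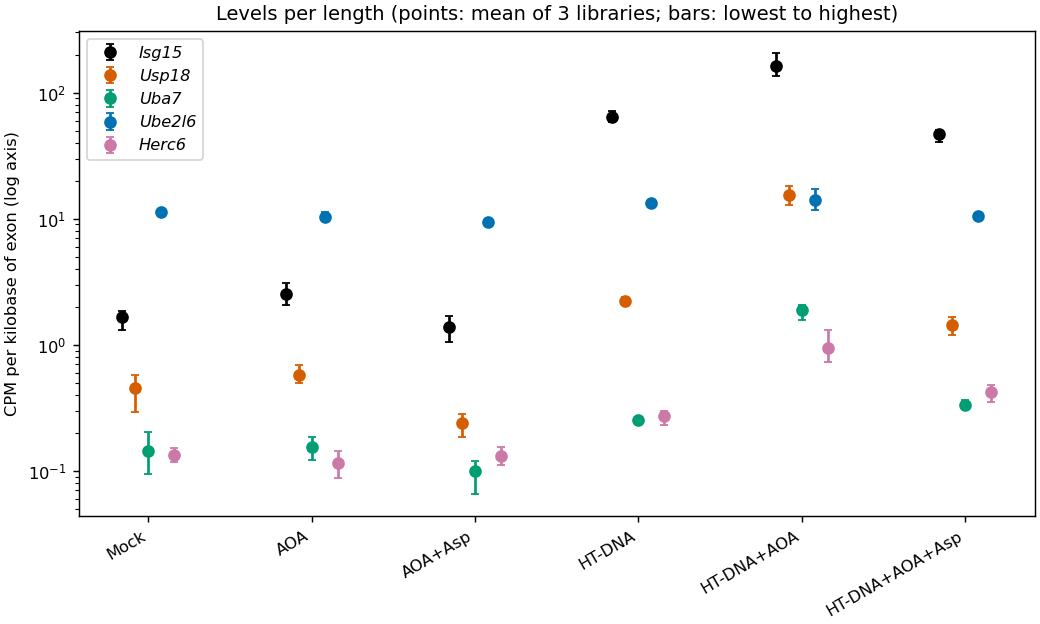
Level per length (CPM per kilobase of exons, log axis) of the 5 genes in the 6 groups; points are the mean of 3 libraries and bars run from the lowest to the highest. Isg15 went from 1.65 in Mock to 163 with HT-DNA+AOA, while Ube2l6 stayed between 9.35 and 14.

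Related genes were read from 5 lists. The list of ligases and relatives held ISG15 ligases, conjugating enzymes related to Ube2l6 and relatives of Herc6. Other proteases reported to cleave ISG15 conjugates and activating enzymes of ubiquitin and its relatives formed separate lists. The remaining lists were the interferon receptor with ISGF3, and proteins described as ISG15 targets. For AOA in stimulated cells, the median log2 fold change of all genes tested was 0.02, with 22.8% called higher and 22.7% lower. Of the 8 tested among 9 ligases and relatives, 3 were higher and none lower (median 0.12). Of 7 receptor and ISGF3 genes, 4 were higher and 1 lower (median 0.25), and of 14 targets 10 were higher and 2 lower (median 0.82). Of the 6 other proteases, none was higher and 4 were lower (median -0.36), or 1 and 4 with RLE scaling, and the 8 activating enzymes gave 2 higher and 2 lower (median -0.05).

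Of the ligase list, Trim25, which encodes a ligase reported to accept ISG15, was at 162, 169 and 149 CPM with HT-DNA, 312, 257 and 240 CPM with HT-DNA+AOA, and 157, 155 and 147 CPM with HT-DNA+AOA+Asp. It was highest in all 3 HT-DNA+AOA libraries, rose by 0.75 with AOA (SE 0.09, adjusted p = 8.87e-07 by edgeR) and fell by 0.82 with aspartate (adjusted p = 4.60e-07). Arih1, a ubiquitin ligase of the same list, was lower with HT-DNA than in Mock (-0.29, adjusted p = 0.0162 by edgeR). It rose by 0.37 with AOA (SE 0.09, adjusted p = 0.00381), to 111 ± 17.7 CPM against 106 ± 2.82 CPM in Mock (SD, n = 3). Unlike Trim25, it was not called different when aspartate was added (0.07, adjusted p = 0.589). Among the other proteases, Usp2 went from 18.3 ± 1.31 CPM with HT-DNA to 7.55 ± 1.03 CPM with HT-DNA+AOA and 15.2 ± 1.56 CPM with HT-DNA+AOA+Asp (SD, n = 3). Usp5, which disassembles ubiquitin chains, went from 195 ± 3.90 to 107 ± 16.7 and 160 ± 2.34 CPM. These 2 proteases therefore moved opposite to Usp18, with adjusted p of 8.32e-08 for Usp2 and 1.05e-07 for Usp5 for AOA in stimulated cells. Both were also lower with AOA in unstimulated cells, by 0.43 for Usp2 (adjusted p = 0.00539 by edgeR) and 0.43 for Usp5 (adjusted p = 0.000399). Usp18 was not called there (0.33, adjusted p = 0.309).

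The activating enzymes that changed most were lower with AOA. Atg7, the activating enzyme of autophagy, went from 19.6 ± 0.454 CPM with HT-DNA to 12 ± 0.234 CPM with HT-DNA+AOA (SD, n = 3; adjusted p = 1.29e-06), and Sae1, a subunit of the SUMO-activating enzyme, from 309 ± 12.2 to 222 ± 23.9 CPM (adjusted p = 2.39e-05). Uba7, of the same enzyme class, rose in that comparison. Atg7 and Sae1 were also lower with AOA in unstimulated cells, with log2 fold changes of -0.40 for Atg7 (adjusted p = 0.000705) and -0.23 for Sae1 (adjusted p = 0.0144).

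Irf9, which encodes the DNA-binding subunit of ISGF3, was also highest with HT-DNA+AOA. It rose by 0.70 with HT-DNA over Mock (SE 0.08, adjusted p = 5.66e-06) and went from 26.6 ± 1.66 to 71.5 ± 4.13 CPM with AOA (SD, n = 3). Mx2, an interferon-induced antiviral GTPase from the target list, was at 1.21, 0.900 and 0.874 CPM with HT-DNA and 18, 14 and 12.2 CPM with HT-DNA+AOA, a rise of 3.89 (SE 0.32, adjusted p = 1.24e-08). The related Mx1 rested on few counts, with 3.25, 5 and 0 counts with HT-DNA, 58.97, 29 and 18.08 counts with HT-DNA+AOA, and 5, 3 and 3 counts with HT-DNA+AOA+Asp.

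Adding aspartate to AOA in stimulated cells gave 2 higher and 11 lower among the 14 targets (median -0.60), 3 and 4 among the 7 receptor and ISGF3 genes (median -0.25), 3 and 3 among the 8 ligases and relatives (median 0.02), 4 and none among the 6 other proteases (median 0.29), and 4 and none among the 8 activating enzymes (median 0.21). The median of all genes was -0.01, with 23.7% called higher and 23.9% lower. Scaling by library totals gave 2 higher and 8 lower among the targets. The lists were chosen with earlier results known, and these counts carry no test of a list.

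**Figure D5:**
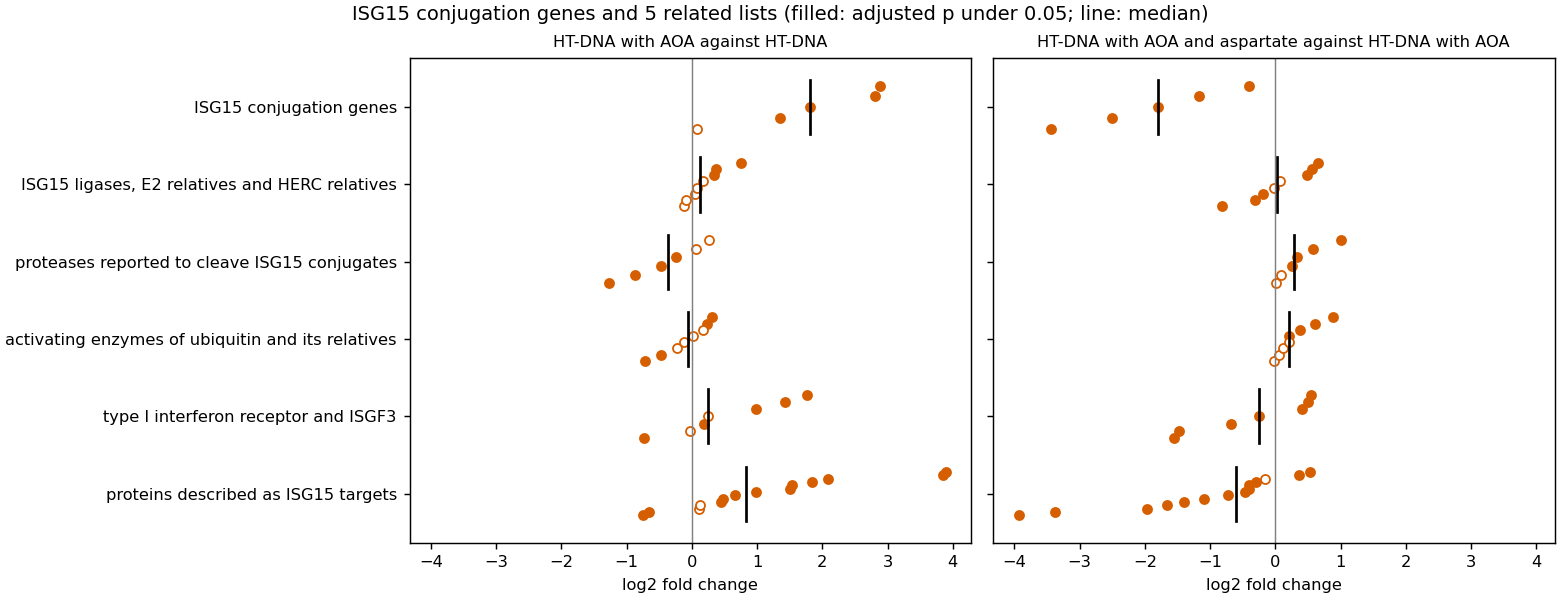
Log2 fold change of each tested gene in the 5 lists and of the 5 members, for AOA added to HT-DNA and for aspartate added to HT-DNA+AOA, with a long vertical line at 0 and a short one at each median; filled points have an adjusted p under 0.05. In the left panel 10 of 14 targets were called higher and 4 of 6 other proteases lower.

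The members' joint profile was the mean of their standardised log2 CPM over the 18 libraries. Usp18 had the closest relation to it (Pearson r = 0.987), followed by Uba7 (0.950), Isg15 (0.941), Herc6 (0.928) and Ube2l6 (0.795), and r between pairs of members ran from 0.546 for Ube2l6 and Herc6 to 0.959 for Usp18 and Uba7. Among 10346 other genes with at least 5 CPM in a group, the 8 closest were Neurl3 (0.990), Irf9 (0.981), Oas1a (0.978), Ccrl2 (0.977), Irgm2 (0.973), Igtp (0.972), Rigi (0.968) and Dhx58 (0.968). Oas1a encodes an oligoadenylate synthetase, Irgm2 and Igtp are immunity-related GTPases, and Rigi and Dhx58 are RNA-sensing helicases. These correlations describe 18 libraries that fall into 6 groups and share their scaling, and the members themselves shape the profile.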

How the data were processed

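RNA from L929 cells was sequenced in 18 libraries, 3 for each of 6 groups taken from the sample labels. The authors deposited estimated counts (expected counts) of reads per gene without normalization, of which 11.6% were not whole, and the values were rounded before testing. The aligner, the counting program and the genome build are not given in the sources used here. The 6 columns of group means by the authors differed from the mean of the libraries by at most 3.3e-05 and served for that check only.

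Totals were 17901605 to 24057343 counts per library, so a gene near 1 CPM rests on few counts. Tests used edgeR 4.0.16 under R 4.3.3. Genes passed filterByExpr (minimum count 10, minimum total 15), libraries were scaled with TMM (factors 0.918 to 1.07), and all 18 were fitted in 1 robust quasi-likelihood model with 11 contrasts. P-values were adjusted by the Benjamini-Hochberg method over 14263 genes and called under 0.05. The SE is the absolute log2 fold change divided by the square root of F. Ratios within a library were compared with exact permutation tests. The fit was tested on simulated data with 200 changed genes. That simulation gave every group the same spread, so it does not cover the wider spread of the HT-DNA+AOA libraries.

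All 5 members were named in each comparison. From each list, the 2 genes with the largest absolute log2 fold change for AOA in stimulated cells were named, except 1 gene that is not reported here. The genes most like the members were ranked by Pearson r with the members' mean profile, among genes with at least 5 CPM in a group. Members, lists and tests were chosen with earlier results of these data known. Lengths and shared 31-base sequences came from GENCODE vM21, and promoters from RefSeq GRCm38.p6, which may not be the build of the deposited counts. Alternatives were RLE scaling, library totals, DESeq2 1.42.0, other filters, a fit of the compared libraries alone, a replicate block, a fold-change threshold, and each library left out in turn.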

Additional observations from a re-analysis of the deposited data

Results flagged for a closer look

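These 5 results stood out because the effect of an agent differed between stimulated and unstimulated cells by the interaction test of edgeR. The AOA effect on the log2 scale was larger with HT-DNA than without it by 2.78 for Uba7, 2.48 for Usp18 and 2.02 for Herc6. The effect of aspartate added to AOA was more negative with HT-DNA than without it for Usp18, with a difference of -2.20, and for Uba7, with -1.87. Over all genes tested, 7.23% had a higher interaction of AOA with HT-DNA and 0.785% a lower interaction of aspartate with HT-DNA. The Uba7 call for aspartate was lost without AOA+Asp replicate 1 or replicate 3. Groups of 3 libraries are too small for a test of single outlying libraries.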

How the results depend on the processing

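Of the values of single genes under settings other than leaving out a library, 358 kept their direction and their side of the threshold, 13 passed it newly, 2 lost it and 1 turned, as did 371, 2, 12 and 5 with 1 library left out. For AOA over Mock, 0 of the 5 genes were called, but 1 with library totals, 1 without a filter on low counts and 1 with DESeq2. The gene called with totals was Ube2l6, which was lower (-0.25). Without a filter and with DESeq2 it was Isg15, which was higher (0.615 in each). Uba7 turned from 0.11 to -0.021 with totals and ran from -0.12 to 0.45 with a library left out. For AOA+Asp over AOA, 2 became 1 with a required log2 change of 1 and were 1 to 2 with a library left out. For AOA+Asp over Mock, 0 became 1 with totals, without a filter, with only the compared libraries and with DESeq2, and 0 to 1 with a library left out, where Herc6 ran from -0.15 to 0.092. The gene called was Usp18, except with only the compared libraries, where it was Ube2l6 (-0.27), and each was lower. For HT-DNA+AOA over HT-DNA, Ube2l6 ran from -0.11 to 0.18 with a library left out. For HT-DNA+AOA+Asp over HT-DNA, 4 became 0 with a required log2 change of 1, and 2 to 4 with a library left out. For the interaction of aspartate with HT-DNA, 2 became 4 without a filter and 1 with at least 10 counts in every library, which drops Uba7, and ran from 1 to 3 with a library left out. The cause was not tested otherwise, and the share of all genes called under each of these settings was not counted. With the longest transcript as length, 24 levels per length moved by more than 1 SD and 6 did not, with the order of the genes as before. Library totals moved the median of all genes from -0.01 to -0.12 for HT-DNA over Mock and from 0.015 to -0.12 for AOA over Mock.

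Whether replicate numbers pair the libraries was read from correlations only and was not tested. Same-numbered libraries had correlations of -0.11 to 0.28 in their deviations, 6 of 39 were over 0.1, and 9 of 18 libraries correlated best with their own number. The replicate block moved the count for HT-DNA over Mock from 4 to 5 (Ube2l6, 0.24, adjusted p = 0.0434 by edgeR) and changed no other count of members called.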
